A study of Mus musculus with 3 samples.

Results

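The 10 genes described here encode matricellular proteins and markers of activated fibroblasts: Postn, Tnc, Fn1, Cthrc1, Thbs1, Thbs2, Sparc, Spp1, Lrrc15 and Fndc1. They were taken by name from a deposited table of 56833 genes, and all 10 were found in it. Bulk RNA sequencing had been done on cells of mouse ankle synovium from Efhd1CreER; Ai9 animals, sorted for the tdTomato reporter and labelled telocytes, an interstitial cell type. All cells carried both alleles and grew for 24 h on collagen-coated plates whose stiffness was 0.2 kPa, 8 kPa or 64 kPa, named soft, intermediate and stiff below. Each level had 1 library, and neither the age nor the number of the animals is given in the sources used here. The inducible Cre under Efhd1 control turns the reporter on for good, also in the progeny of a marked cell, so the label records past as well as present use of Efhd1. The study asked how matrix stiffness affects the conversion of these cells into fibroblasts.

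Matricellular proteins are secreted into the matrix but serve mainly as signals and adaptors rather than as structural fibres. They bind integrins, collagens, proteases and growth factors, and many are low in resting adult tissue and high during wound repair, fibrosis and arthritis. Fibronectin (Fn1) is the provisional fibre network on which collagen is laid down, and tenascin C (Tnc) modulates adhesion to it. The thrombospondins Thbs1 and Thbs2 regulate angiogenesis, and Thbs1 can activate latent TGF-beta. Periostin (Postn) and SPARC take part in collagen fibril assembly, and osteopontin (Spp1) is an integrin and CD44 ligand made by bone cells, macrophages and fibroblasts. Cthrc1 is a secreted protein of activated fibroblasts, and Lrrc15 is a membrane protein of TGF-beta-activated myofibroblasts.

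The libraries held between 25487064 and 28081600 reads. With 1 library per level there is no spread between replicates, no p-value is given, and a difference between plates cannot be told apart from a difference between cultures. Intervals in brackets are exact 95% Clopper-Pearson intervals of the read ratio and cover counting error only. All 9 fibroblast markers were measured, with sums of 243271 normalized counts at 0.2 kPa, 288719 at 8 kPa and 343986 at 64 kPa, most of it from Col1a1 and Col1a2. Cd34, at 234.8 to 317.9, and Lum, at 607 to 787, were far lower. In stiff against soft, 6 of the 9 were above 0 and 3 below, with a median log2 ratio of 0.26, or 0.053 after correction for transcript length and GC content. Pdgfra had -0.20, Lum -0.36 and Dcn -0.44. Efhd1 itself had 10 reads at 0.2 kPa, 5 at 8 kPa and 3 at 64 kPa, and tdTomato had 818, 1193 and 2668 normalized counts in that order. Macrophage markers were present too, although the sort for tdTomato should remove unlabelled macrophages: the summed level of 17 such genes was 47827 normalized counts at 0.2 kPa, 63194 at 8 kPa and 101832 at 64 kPa. Of the 16 with a mean of at least 10, all 16 were higher in the stiff than in the soft library, with a median log2 ratio of 1.25. None was at 0, and Cd163, at 2.05 to 9.23 normalized counts, was the lowest. In bulk RNA, fewer cells of a type and less RNA per cell cannot be told apart.

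The 10 genes did not move as a block. As deposited, between soft and stiff plates Fndc1 and Fn1 were higher by at least 2-fold, Thbs1 was moderately higher, Postn, Sparc and Tnc differed little, and Spp1, Cthrc1 and Thbs2 were lower. Log2 ratios were computed with a pseudocount of 1, and a gene was counted as past the threshold when the ratio was at least 1 in size and its mean over the libraries was at least 50. Of the 10, 9 had that mean and Lrrc15 did not. The ratios of all genes followed transcript length and GC content, so each is also given, where it matters, after a local fit of that trend was subtracted (the corrected ratio). In stiff against soft 2 of the 9 were past the threshold upward, where 3.22% of 11873 genes were, and 1 downward, where 0.387% were. Their median log2 ratio was 0.15 as deposited, against 0.005 over all genes, and 0.024 when corrected. Without Fndc1, which a minimum mean of 200 removes, the deposited median was 0.088. Between intermediate and soft 0 of the 9 passed in either direction, with 0.16% of genes higher and 0.00842% lower. Between stiff and intermediate 1 of the 9 passed upward and 0 downward, with 0.825% and 0.421% of genes. Fn1 was not past the threshold in the corrected ratio, and Thbs1 and Postn, at 0.43 and 0.15 as deposited, both had 0.22 when corrected. The genes were selected on these same ratios, so the counts are a description.

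**Figure D1:**
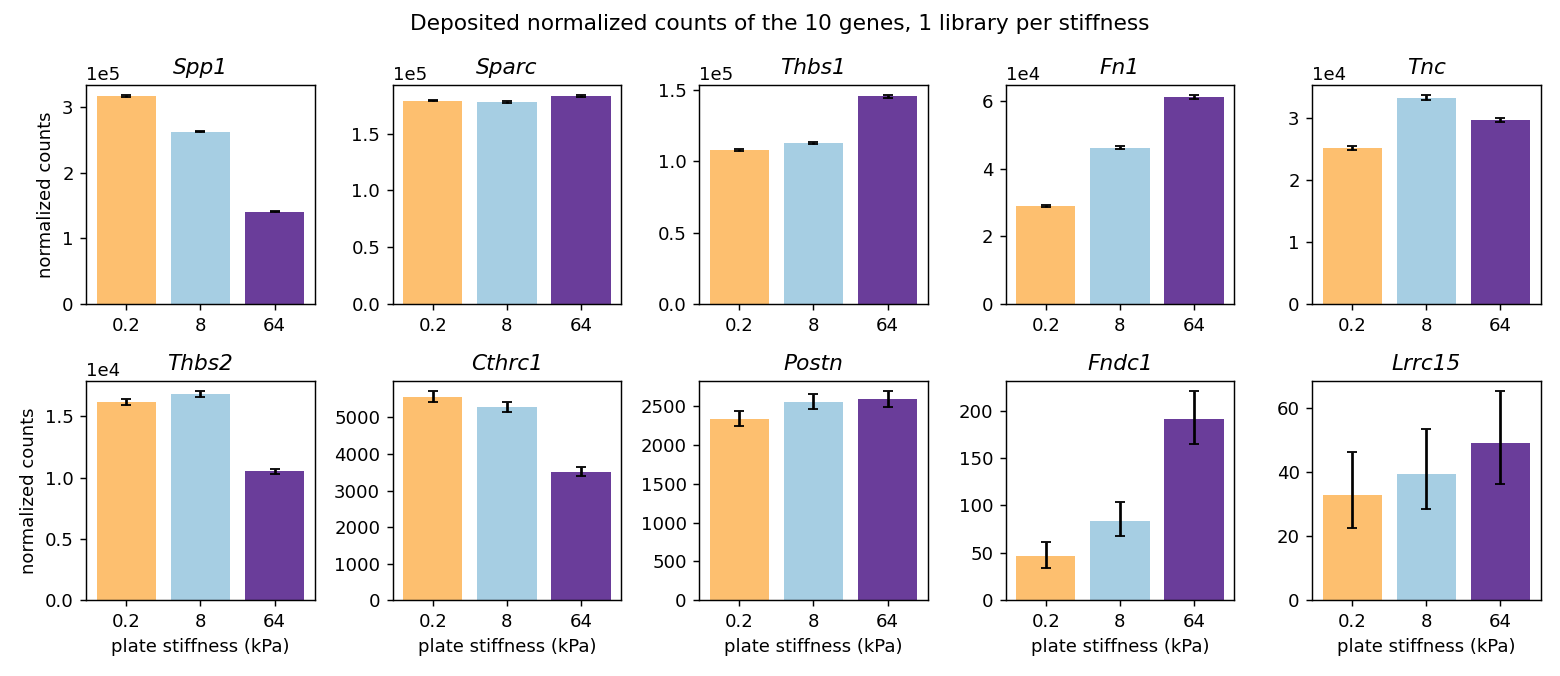
Deposited normalized counts (vertical axes, linear from 0, one scale per gene) of the 10 genes at 0.2, 8 and 64 kPa, 1 library per bar, with exact 95% Poisson counting intervals as error bars. Spp1 steps down from 316083 to 140702, Fn1 steps up from 28877 to 61089, and Sparc lies between 177439 and 182698 at every stiffness.

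The promoters of Spp1 and Fndc1, the genes with the lowest and the highest stiff to soft ratio, and of Thbs2 are shown because Spp1 and Thbs2 were lower and Fndc1 was higher on the stiff plate. RefSeq entries on GRCm38.p6 were matched by symbol for 7 of the 10 genes. The 250 bases before the start site are printed in the direction of the gene, with matches to the motifs searched in capitals. Spp1, Postn and Tnc have 2 entries each, at different start sites; for Spp1 the first is printed, and the second, at chr5:104435942-104436191, held no match.

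Spp1, chr5:104434861-104435110, plus strand: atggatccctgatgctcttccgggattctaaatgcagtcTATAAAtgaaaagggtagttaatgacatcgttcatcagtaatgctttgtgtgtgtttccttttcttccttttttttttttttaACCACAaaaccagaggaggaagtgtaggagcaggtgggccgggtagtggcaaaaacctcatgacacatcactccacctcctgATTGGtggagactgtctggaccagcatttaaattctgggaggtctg
Thbs2, chr17:14694263-14694512, minus strand: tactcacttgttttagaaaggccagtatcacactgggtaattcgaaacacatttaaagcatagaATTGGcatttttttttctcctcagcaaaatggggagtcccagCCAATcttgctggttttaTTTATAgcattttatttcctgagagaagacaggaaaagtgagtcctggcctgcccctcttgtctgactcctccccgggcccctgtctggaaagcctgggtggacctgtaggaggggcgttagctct
Fndc1, chr17:7827303-7827552, minus strand: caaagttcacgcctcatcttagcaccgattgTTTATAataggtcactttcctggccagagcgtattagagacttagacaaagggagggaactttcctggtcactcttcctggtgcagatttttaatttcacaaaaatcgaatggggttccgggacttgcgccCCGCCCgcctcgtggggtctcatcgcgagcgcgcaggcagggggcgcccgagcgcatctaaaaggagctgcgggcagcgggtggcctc

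The motifs, searched on both strands, were the CArG box of SRF, GGAATG of TEAD factors, TGANTCA of AP-1, TGACGTCA (CRE), GTCTAGAC of SMAD factors, TGTGGT of RUNX factors, the GC box GGGCGG, the CCAAT box and TATAAA. A CArG box can hold the letters of the CCAAT box or TATAAA, the other motifs do not contain one another, and an AP-1 match of TGACTCA reads the same on both strands apart from its middle base. The first Spp1 entry held a RUNX match on the minus strand at -128 to -123 and a CCAAT match on the minus strand at -46 to -42. RUNX and CCAAT matches were present in 14.05% and 33.85% of 32851 promoters. Thbs2 held a CCAAT match on each strand, and Fndc1 a GC box, present in 32.74% of promoters. TATAAA, in 12.37% of promoters, was matched on the plus strand of the first Spp1 entry from -211 and on the minus strand of Thbs2 from -126 and of Fndc1 from -219. It was also matched on the plus strand in the second Postn entry, at -26 to -21, and in both Tnc entries, which hold a GC box too. Lrrc15 held the AP-1 match at -53 to -47 (6.749% of promoters) and a GC box. The first Postn entry and Sparc held none of the motifs. No match to the CArG box (1.467%), TEAD (12.64%), CRE (1.546%) or SMAD (0.1674%) motif lay in the windows of the 7 genes, which says only that these letters are not there.

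Spp1, a secreted phosphoprotein with roles in mineralised tissue, cell adhesion and inflammation, had the largest difference in normalized counts among the 10. It had 316083 normalized counts at 0.2 kPa, 262242 at 8 kPa and 140702 at 64 kPa. The level was thus highest on the soft plate and lowest on the stiff plate. It ranked 1 of all genes by normalized count on the soft plate, 2 on the intermediate and 11 on the stiff plate, and its share of all reads was 1.21%, 0.991% and 0.518%. The stiff to soft log2 ratio was -1.17 (-1.18 to -1.16), a 2.25-fold lower value, and 0.194% of genes had a ratio as low or lower. Most of the difference lay in the upper step: the log2 ratio was -0.27 from soft to intermediate and -0.90 from intermediate to stiff. Spp1 is also a gene of macrophages and bone cells. Its level was lower where the macrophage markers were higher. Of 9 osteoclast markers 6 had a mean of at least 10, of which 2 were above and 4 below 0 in stiff against soft, with a median of -0.26. The 9 summed to 8225 normalized counts at 0.2 kPa, 8398 at 8 kPa and 6540 at 64 kPa. Of those 6, Mmp9 had -0.93, Dcstamp -0.76, Ctsk -0.47 and Nfatc1 -0.06, while Acp5 had 0.67 and Atp6v0d2 0.68. Of 8 osteoblast and osteocyte markers 4 had that mean, of which 2 were above and 2 below 0, with a median of -0.42. The 8 summed to 2217, 2505 and 2061 in the same order. Of those 4, Phex had -1.94, Sp7 -0.91, Bglap2 0.07 and Alpl 0.76. Phex rested on 22 reads in the soft and 5 in the stiff library, and Bglap2 on 19 and 20. None of either list was at 0 in all libraries. The part of macrophages and bone cells in the Spp1 level was not tested. Spp1 lies on chromosome 5 of GRCm39 at 104582165 to 104589235, plus strand, and its canonical transcript has 7 exons.

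The genes whose 2 log2 steps were nearest to those of Spp1, of 9558 searched over the 3 libraries, were Mgp, Cck and Ramp3. Their Euclidean distances were 0.05, 0.06 and 0.08. Mgp, matrix Gla protein, an inhibitor of calcification, had 18662 normalized counts at 0.2 kPa, 15857 at 8 kPa and 8702 at 64 kPa. With 3 libraries many genes share a shape, and the likeness is a description.

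Cthrc1 and Thbs2 differed mainly at 64 kPa. Cthrc1 had 5561 normalized counts at 0.2 kPa, 5293 at 8 kPa and 3513 at 64 kPa. Soft and intermediate lay close together and the stiff library stood below both. The stiff to soft log2 ratio was -0.66 (-0.72 to -0.60), and 10.7% of that change was present at the intermediate level. Cthrc1, on chromosome 15 at 38940246 to 38950518, plus strand, marks the collagen-producing fibroblasts of injured tissue. The collagen genes had ratios of 0.95 for Col1a1 and 0.28 for Col1a2 as deposited, and of 0.42 and 0.0056 when corrected.

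Thbs2, on chromosome 17 at 14885761 to 14914528, minus strand, is an inhibitor of angiogenesis that also clears matrix proteases. It had 16141 normalized counts at 0.2 kPa, 16782 at 8 kPa and 10534 at 64 kPa. The log2 ratio was -0.62 (-0.65 to -0.58) for stiff to soft and -0.67 (-0.71 to -0.64) for stiff to intermediate. From soft to intermediate it was 0.06, and the corrected ratio was -0.01, so no direction is given for that step.

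Thbs1, on chromosome 2 at 117941974 to 117957616, plus strand, belongs to the same subgroup of trimeric thrombospondins as Thbs2 and can activate latent TGF-beta. It had 107956 normalized counts at 0.2 kPa, 112973 at 8 kPa and 145515 at 64 kPa. The stiff library was the highest, and the others differed by 1.05-fold. The stiff to soft log2 ratio was 0.43 (0.42 to 0.44), and 14.2% of genes had a ratio as high or higher. Its corrected value was 0.22. The soft to intermediate ratio was 0.07, and -0.06 when corrected, so no direction is given for that step.

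The 2 thrombospondins therefore moved apart on the stiff plate. There were 6.69 Thbs1 reads per Thbs2 read (6.58 to 6.80) at 0.2 kPa, 6.73 (6.63 to 6.84) at 8 kPa and 13.8 (13.5 to 14.1) at 64 kPa. The intervals of the soft and intermediate libraries overlapped, and that of the stiff library lay above both. In TPM, reads per transcript length scaled to the same sum in each library, the ratios were 6.36, 6.40 and 13.1. A ratio within a library does not depend on how libraries are scaled.

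Fn1, on chromosome 1 at 71624673 to 71692419, minus strand, whose canonical transcript has 46 exons, encodes fibronectin. It had 28877 normalized counts at 0.2 kPa, 46177 at 8 kPa and 61089 at 64 kPa, a higher value at each step. The log2 ratio was 1.08 (1.06 to 1.10) for stiff to soft, and 2.48% of genes had a ratio as high or higher. It was 0.68 from soft to intermediate and 0.40 from intermediate to stiff, so 62.7% of the change was present at 8 kPa, against 23.1% for Spp1. These values are as deposited, and the corrected steps of Fn1 were 0.29 and 0.14. Fn1 is long and GC-rich, and genes of its length and GC content had a fitted ratio of 0.64; with that subtracted Fn1 stood at 0.44, below the threshold of 1. Gene counts do not separate the spliced forms of fibronectin. Macrophages also make Fn1 and Thbs1. The part of the higher macrophage markers in these values was not tested.

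Tnc, on chromosome 4 at 63878014 to 63965443, minus strand, peaked on the intermediate plate. It had 25232 normalized counts at 0.2 kPa, 33352 at 8 kPa and 29732 at 64 kPa. The log2 ratio was 0.40 (0.38 to 0.43) from soft to intermediate and -0.17 (-0.19 to -0.14) from intermediate to stiff. The corrected steps were 0.14 and -0.32. The stiff to soft ratio was 0.24 as deposited and -0.17 when corrected, so no direction is given for it. Fn1 and Tnc had near equal TPM on the soft plate, 300.3 and 302.3, and 635 and 356 on the stiff plate.

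As deposited, Postn and Sparc had the stiff to soft ratios nearest to 0. Postn, on chromosome 3 at 54268501 to 54298471, plus strand, had 2339 normalized counts at 0.2 kPa, 2555 at 8 kPa and 2589 at 64 kPa. Its stiff to soft log2 ratio was 0.15 (0.06 to 0.23) and 0.22 when corrected, a larger size than the -0.17 of Tnc, and the stiff to intermediate interval, -0.06 to 0.10, included 0. Sparc, on chromosome 11 at 55285317 to 55314067, minus strand, had 179007, 177439 and 182698 normalized counts in the same order. Its log2 ratio of 0.03 turned to -0.03 when libraries were scaled to total reads or to the upper quartile, so no direction is given. Since Spp1 was lower on the stiff plate, Sparc went from 0.566 reads per Spp1 read on the soft to 1.30 on the stiff plate.

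Fndc1 and Lrrc15 were the least abundant of the 10. Fndc1, a protein with fibronectin type III domains, lies on chromosome 17 at 7956510 to 8046177, minus strand. It had 45 reads at 0.2 kPa, 89 at 8 kPa and 186 at 64 kPa, or 46.1, 83.9 and 190.7 normalized counts. Each step was upward, and the counting intervals of both steps lay above 0. The stiff to soft log2 ratio was 2.02 (1.57 to 2.55), 4.07-fold, and 0.101% of genes had a ratio as high or higher. The corrected ratio was 1.60. Fndc1 was the 1 gene of the 9 with at least 0.5 in the same direction at both steps, as were 1.04% of genes in the rising and 0.0421% in the falling direction. The nearest genes in the 2 steps were Marco, a macrophage scavenger receptor, Acta1, skeletal actin, and Myh9, the heavy chain of non-muscle myosin, at distances of 0.07, 0.11 and 0.14.

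Lrrc15, on chromosome 16 at 30088120 to 30102084, minus strand, had 32 reads at 0.2 kPa, 42 at 8 kPa and 48 at 64 kPa. The stiff to soft log2 ratio was 0.57, and its interval, -0.09 to 1.28, included 0. A difference in Lrrc15 was not detectable at this depth. Its TPM was 0.539 to 0.809, a low level on all plates for this marker of myofibroblasts.

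Per length, the order of the 10 genes on the soft plate was Spp1 at 12399.8 TPM, Sparc at 6779, Thbs1 at 1515, Cthrc1 at 405.5, Tnc, Fn1, Thbs2 at 238, Postn at 64.6, Fndc1 at 0.555 and Lrrc15 at 0.539. Fn1 stood at 0.993 of Tnc there and Fndc1 at 1.03 of Lrrc15, and read counts of 45 and 32 do not order that last pair. On the stiff plate Sparc, at 6922 TPM, stood above Spp1, at 5522, and Fn1 stood above Tnc and Cthrc1. Cthrc1 had 256 TPM on the stiff plate. Together the 10 genes took 2.61% of all reads on the soft, 2.48% on the intermediate and 2.12% on the stiff plate. Spp1 made up 46.4% of these reads on the soft and 24.4% on the stiff plate, while Fn1 went from 4.24% to 10.6%.

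**Figure D2:**
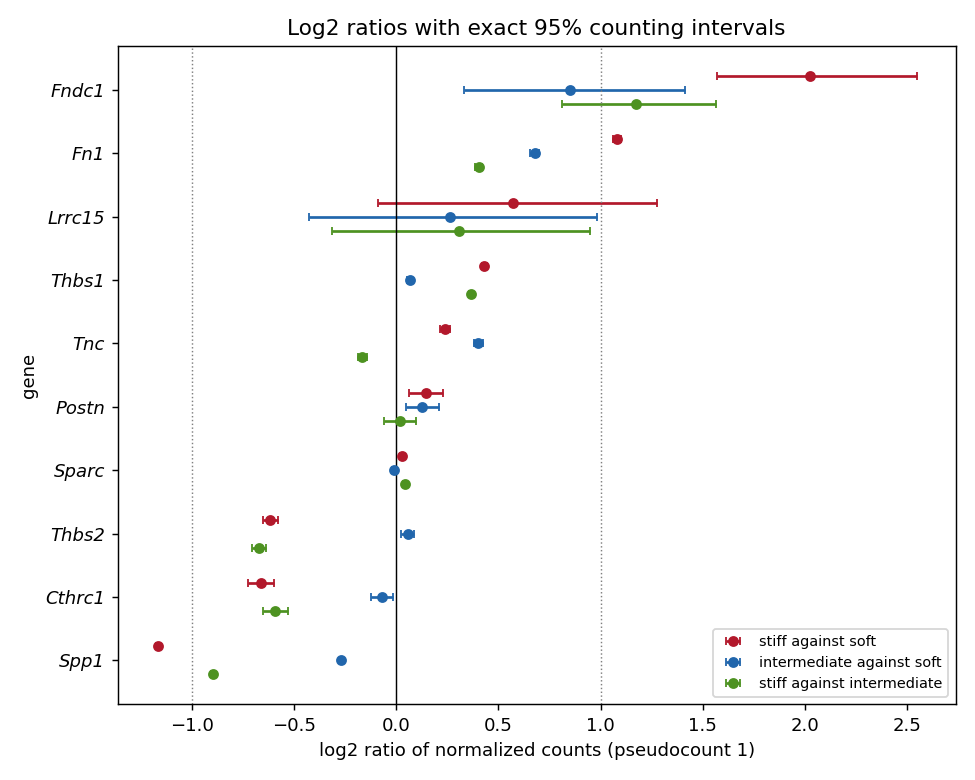
Log2 ratios (horizontal axis, pseudocount 1) of the 10 genes in the 3 comparisons of plates, with exact 95% counting intervals; dotted lines mark a size of 1. Fndc1 (2.02) and Fn1 (1.08) are past the upper line and Spp1 (-1.17) past the lower one in stiff against soft, and the intervals of Lrrc15 include 0 in all 3 comparisons.

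**Figure D3:**
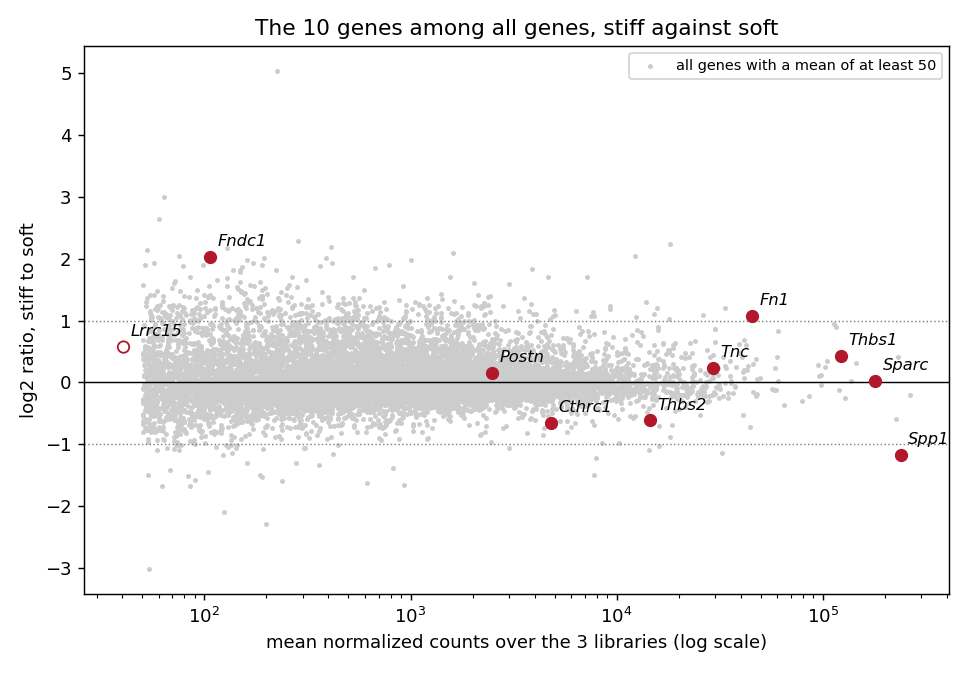
Log2 ratio of stiff to soft (vertical axis) against mean normalized counts over the 3 libraries (horizontal axis, log scale) for 11873 genes in grey and the 10 genes in red; Lrrc15, hollow, has a mean under 50. Spp1 lies at the abundant end and below -1, and Fndc1 lies at low abundance above 2.

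The correction for length and GC content used a local linear fit over the 300 nearest genes. Spp1 then had a stiff to soft log2 ratio of -1.02, Cthrc1 of -0.52, Thbs2 of -0.72, Thbs1 of 0.22, Postn of 0.22 and Fndc1 of 1.60. Thbs2 moved farther from 0 and Fn1 nearer to it. Of the 3 genes past the threshold in stiff against soft, Spp1 and Fndc1 were past it in the corrected ratios and Fn1 was not.

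**Figure D4:**
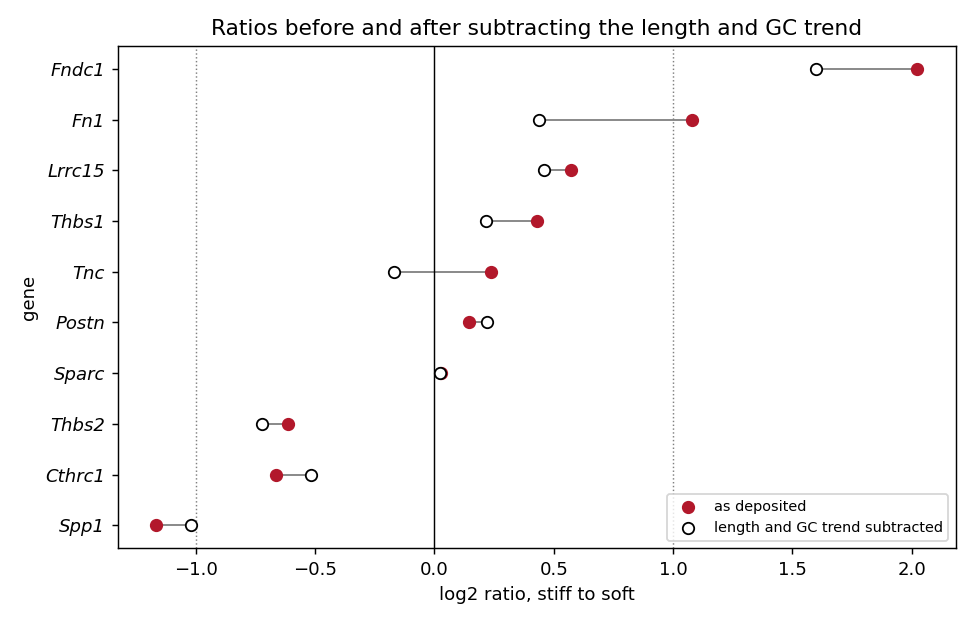
Log2 ratio of stiff to soft (horizontal axis) of the 10 genes as deposited (filled red) and with the length and GC trend subtracted (open); dotted lines mark a size of 1. Fn1 moves from 1.08 to 0.44 and Tnc from 0.24 to -0.17, while Spp1, Cthrc1 and Thbs2 are below 0 in both.

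Genes of the same families and pathways were taken from lists that share some members. Over the 14291 genes with a mean of at least 10, the median stiff to soft ratio was 0.0004, 50.9% were above 0, 4.16% were past the threshold upward and 1.59% downward. The share above 0 was 52.6% in intermediate against soft and 51.1% in stiff against intermediate, with medians of 0.0096 and 0.0065. All these shares are of ratios as deposited. No such share is given here for corrected ratios, so the corrected tallies below have no background. The families themselves held genes on both sides of 0. Of 24 other thrombospondins, tenascins, SPARC-family, CCN and related proteins, 18 had a mean of at least 10. Of these 11 were above 0 and 7 below 0 in stiff against soft, with a median of 0.07, and 1 was past the threshold upward and 0 downward. When corrected, which 17 of the 18 could be, the tally turned to 7 above and 10 below 0, with a median of -0.11. The gene past the threshold was Ccn2, connective tissue growth factor, with 23626 normalized counts at 0.2 kPa, 22575 at 8 kPa and 54585 at 64 kPa. Its log2 ratio was 1.21 (1.19 to 1.23), and the upper step alone had 1.27. The lowest was Ccn3, at -0.68, and the most abundant was Fstl1, at 0.30. Tgfbi, the paralog of Postn, had a ratio of -0.22. Among the other thrombospondins Thbs3 had -0.07, Thbs4 0.34 and Comp 0.26. Among the tenascins Tnn had 0.66 as deposited, with 89 to 141 reads, and 0.39 when corrected. Tnxb had 0.67 as deposited and -0.45 when corrected.

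Receptors of these proteins were mostly above 0. Of 20 integrins and other receptors and partners, 19 had a mean of at least 10, of which 14 were above and 5 below 0 in stiff against soft, with a median of 0.18 and with 3 past the threshold upward and 0 downward. When corrected 13 were above and 6 below 0, with a median of 0.09 and with 2 past the threshold upward and 1 downward. The highest was Itga4, a fibronectin and osteopontin receptor subunit of leukocytes, at 1.29 with 30 reads in the soft and 75 in the stiff library. Cd93 and Lrp1, the clearance receptor of thrombospondins, had ratios of 1.26 and 1.24, and Lrp1 had a corrected ratio of 0.06. The lowest was Itgb3, the beta subunit of the vitronectin receptor that binds osteopontin. It had 4192 normalized counts at 0.2 kPa, 4484 at 8 kPa and 2377 at 64 kPa, a log2 ratio of -0.82 (-0.89 to -0.74). Its corrected ratio was -1.01, so Itgb3 was the 1 gene past the threshold downward when corrected. As for Cthrc1 and Thbs2, the difference lay in the upper step, at -0.92. Itga5, the fibronectin receptor subunit, had a ratio of 0.75, and Cd36, a thrombospondin receptor also present on macrophages, of 0.76. The corrected ratios were 0.47 for Itga5 and 0.98 for Cd36. Calr, the most abundant of the list, had 0.05. The part of the higher macrophage markers in Itga4, Cd93, Lrp1 and Cd36 was not tested.

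Of 13 fibronectin assembly partners, which include collagens, Lox and Tgm2, 12 had a mean of at least 10, and Vtn, with 1 to 2 reads, did not. These 12 were above 0 in each of the 3 comparisons, with a stiff to soft median of 0.42. The corrected ratios were above 0 for all 12 in stiff against soft, with a median of 0.27, and for 11 in each of the other comparisons. As deposited 1 gene was past the threshold, and 0 when corrected. It was Col5a1 at 1.30, with a corrected ratio of 0.53, and the lowest was Itgb1 at 0.18. Lox, which crosslinks collagen, was the most abundant at 0.32. Of 20 activated fibroblast genes 15 were above and 5 below 0, with a median of 0.37 and 3 past the threshold upward. When corrected 14 were above and 6 below 0, with a median of 0.32 and 2 past the threshold: Ltbp2, at 1.05 as deposited, had 0.43. Between intermediate and soft the median was 0.15, with 17 above 0. Acta2, smooth muscle actin, was the highest at 2.24, and Mmp11, a protease of the stroma, the lowest at -0.84. Fap, the fibroblast activation protein, had 155.8 normalized counts at 0.2 kPa, 162.1 at 8 kPa and 108.7 at 64 kPa. Of 14 genes known to respond to TGF-beta, 9 were above and 5 below 0, with a median of 0.16 and 2 past the threshold upward, Ccn2 and Ltbp2. When corrected the tally turned to 6 above and 8 below 0, with a median of -0.02 and 1 past the threshold. Ccn2 was the highest of these, at 1.21, and Id1, an inhibitor of transcription factors, the lowest, at -0.54.

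**Figure D5:**
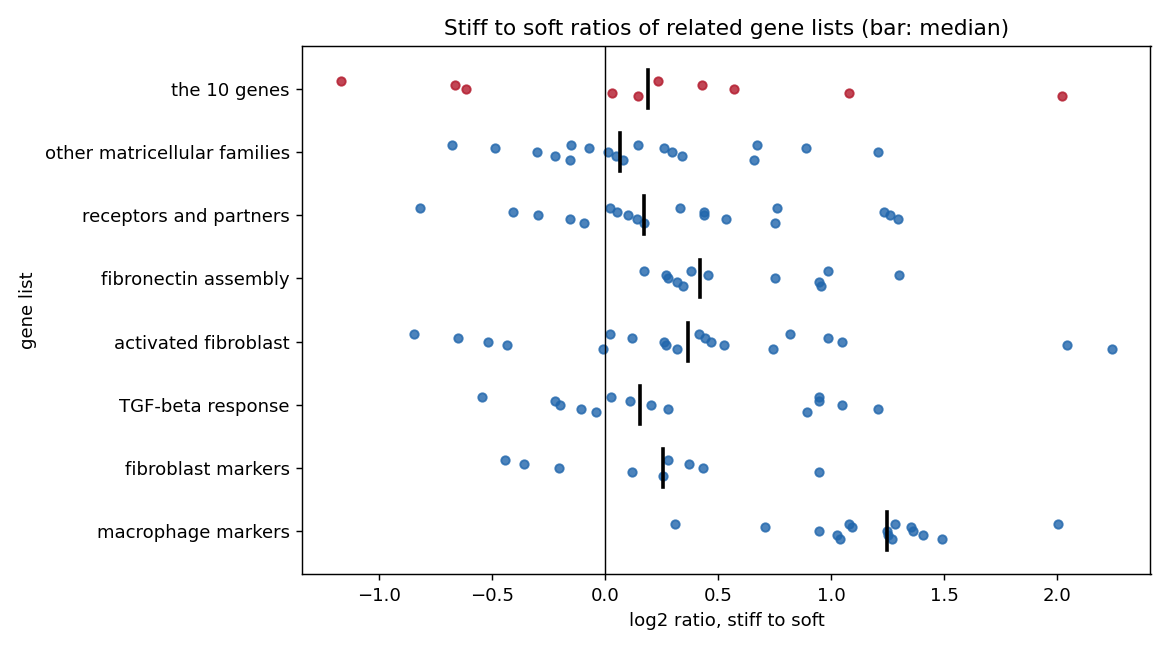
Log2 ratio of stiff to soft (horizontal axis) for the 10 genes and for genes with a mean of at least 10 in each related list, 1 point per gene, black bars at the medians. The median of all 10 genes is 0.19, and the macrophage markers, with a median of 1.25, have the median farthest to the right.

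Genes annotated over the same loci in GENCODE vM39 had few reads: the antisense and sense transcripts overlapping Tnc, Fn1, Thbs1 and Spp1 had at most 41 reads in any library. The 4 overlapping Postn, Lrrc15 and Fndc1 were not analysed here.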

How the data were processed

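Gene counts were divided by 1 size factor per library and deposited as signal values; that DESeq2 made them comes from the file name. The submitters' processing notes name bcl2fastq 2.20.0, STAR 2.7.9a, featureCounts of Subread 2.0.1, DESeq2 1.34.0 and GRCm39, without settings. The 3 deposited files were identical and 1 was read; each column carries a sample's title. Dividing each column by its lowest value above 0 gave whole numbers for 100% of values (tolerance 0.001), taken as reads; 1 read equals 1.025 normalized counts at 0.2 kPa, 0.9427 at 8 kPa and 1.026 at 64 kPa. A count test needs replicates and was not made. A count of 0 allows up to 3 reads. TPM were computed here from reads and the length of the Ensembl canonical transcript in GENCODE vM39 (GRCm39), matched by symbol or Ensembl identifier; of 11873 genes at a mean of 50 or more, 11674 matched.

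The genes and lists were chosen with earlier results of these data known. Named were the 10 genes, the highest, lowest and most abundant gene of each list, and the 3 nearest genes (mean of at least 200) to the highest and lowest of the 10; other list genes were named after their values were seen. The value of 1 gene under this rule is not reported here. Alternatives were pseudocounts of 0.1 and 10, minimum means, 3 scalings (total reads, upper quartile and TMM of edgeR 4.0.16), other thresholds and a robust local linear fit of the ratios on log2 length and GC content. Ratios, intervals and the fit were tested on simulated data. Python 3.11.15 was used with scipy 1.17.1, matplotlib 3.10.9, pandas 2.3.3 and numpy 2.4.6.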

Additional observations from a re-analysis of the deposited data

How the results depend on the processing

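With 1 library per level no replicate could be left out. No paired analysis was possible because each group has 1 library and no test was made. Of 30 log2 ratios of the 10 genes, 25 kept their sign under the 3 scalings, both pseudocounts and the length and GC subtraction. The other 5 were the stiff to soft ratios of Tnc and Sparc, the intermediate to soft ratios of Thbs1 and Thbs2, and the stiff to intermediate ratio of Postn. No ratio of at least 1 in size changed sign. The scalings shifted the median stiff to soft ratio by at most -0.058. At a log2 ratio of at least 0.5 the number of genes past the threshold was 5 in stiff against soft, 2 in intermediate against soft and 4 in stiff against intermediate; at 2 it was 1 in stiff against soft and 0 in stiff against intermediate. With a minimum mean of 200, which removes Fndc1, it was 0 in stiff against intermediate, the median there was -0.073, and 0 genes moved one way over both steps. At 0.25 per step 3 genes did so, 2 rising and 1 falling, and at 1 per step 0. The shares of all genes at these step sizes are not given here. Subtracting the trend with length and GC content gave a median of 0.024 in stiff against soft and -0.011 in intermediate against soft. The intermediate to soft median was 0.096 with no minimum mean, which adds Lrrc15, and 0.030 with upper-quartile scaling. These follow from the thresholds, the genes counted or the shift itself. Depth limits Lrrc15, at 32 to 48 reads, and Fndc1, at 45 to 186.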

Other observations

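Spp1 belongs to a family of acidic matrix proteins of bone and tooth, the SIBLING family, whose other genes lie beside it on chromosome 5. That list was written after the data had been seen. The other 4, Ibsp, Mepe, Dmp1 and Dspp, summed to 11.3 normalized counts at 0.2 kPa, 7.54 at 8 kPa and 11.3 at 64 kPa, and 2 of them had no read. Among the osteoblast genes Sp7, a transcription factor, had 1407 normalized counts at 0.2 kPa, 1501 at 8 kPa and 749.6 at 64 kPa. Alpl, alkaline phosphatase, had 747, 944 and 1269 in that order, so these genes differed in opposite directions.

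Markers of other cells that make thrombospondins or SPARC differed widely in level. The 8 endothelial genes summed to 57.4 normalized counts at 0.2 kPa, 79.2 at 8 kPa and 88.2 at 64 kPa, and 1 of them, Cldn5, had no read. The 7 platelet and megakaryocyte genes summed to 6108, 6633 and 9455 normalized counts, nearly all from Pf4 and Ppbp. Pf4, a chemokine that macrophages also make, had 4794, 5252 and 7553, and Ppbp, a platelet chemokine, had 1233, 1289 and 1838, a stiff to soft log2 ratio of 0.57. Gp9, Gp1ba and Gp5 had no read. The 7 mural cell genes summed to 2374, 3283 and 3148 normalized counts, the 6 Schwann and glial genes to 346.5, 366 and 462.5, and the 7 cartilage and tendon genes to 1185, 1455 and 1500.3.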
